A study of Mus musculus with 7 samples.

Results

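Hox genes encode transcription factors with a homeodomain, a DNA-binding fold that prefers short TAAT-containing sites. In mammals they lie in 4 clusters, Hoxa to Hoxd, and each gene carries a paralog number by its place in the cluster. Low numbers lie at the end of the cluster that is active early and towards the head, and high numbers lie at the end that is active late, towards the tail and towards the tip of the limbs. Cells of the limb and trunk, among them fibroblasts and muscle precursors, keep a Hox code of their place of origin, held by Polycomb and Trithorax chromatin complexes. Hmga2, the gene deleted here, encodes a chromatin protein whose AT-hooks bind the minor groove of AT-rich DNA.

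The members are the Hox cluster genes with a probe set that the platform annotation pairs with exactly 1 gene, each represented by its brightest probe set. They number 33 of the 18193 genes measured in this way, and 33 of the 39 Hox cluster genes in RefSeq. The Hoxa cluster on chromosome 6 gave 9 members of 11, Hoxb on chromosome 11 gave 9 of 10, Hoxc on chromosome 15 gave 7 of 9 and Hoxd on chromosome 2 gave 8 of 9. The other Hox cluster genes were not analysed here. Each value is an intensity, the brightness of a probe set on a linear scale, which depends on the probes as well as on the transcript, so transcript levels of different genes are not ranked here. The brightest probe set of a cluster is named only as such, and a summed intensity of markers is weighted towards its brightest probe sets.

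The study compared myoblasts, the precursors that fuse into muscle fibres, from 4 mice labelled HMGA2 -/- (Hmga2 KO) and 3 wild type mice, all C57BL/6 and untreated. The male samples were Hmga2 KO replicates 1 and 3; Hmga2 KO replicates 2 and 4 and all 3 wild type replicates came from females. Samples are labelled as biological replicates. For Hmga2 KO replicate 2 alone the labels give different animal numbers in different fields. No source used here gives the muscle of origin, the age of the mice or the kind of deletion.

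All 7 arrays had a median intensity of 150. Hmga2 averaged 95.8 ± 7.70 in Hmga2 KO (SD, n = 4), in a range of 85.7 to 104, against 11599 ± 1443 in wild type (SD, n = 3), in a range of 9997.5 to 12800, a log2 difference of -6.90 (adjusted p = 1e-08, limma). All 10 myoblast markers were above background, with a summed intensity of 59688 to 78156 in Hmga2 KO and 72659 to 80655 in wild type. Wild type replicate 2 had a higher 3' to 5' ratio of the Actb control, at 1.94 against 1.61 to 1.74 in the other samples. For Gapdh the ratio was 1.52 against 1.22 to 1.36. A higher ratio is a sign of lower RNA integrity. Across all genes, 5 passed the genotype test, which is 0.0275% of the genes tested, and the median log2 difference was -0.07.

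The 250 bases before the RefSeq start of 4 members are shown, because Hoxa11 and Hoxa7 were among the members with the smallest unadjusted p for genotype and Hoxd8 and Hoxd9 varied together between samples. The sequences are RefSeq's on assembly GRCm38.p6, written 5' to 3' on the strand of the gene, with runs of at least 6 A or T in capitals. Hoxa11 lies on the minus strand with its window at chr6:52245811-52246060, and Hoxa7 on the minus strand at chr6:52218574-52218823. Hoxd8 lies on the plus strand with its window at chr2:74704365-74704614, and Hoxd9 on the plus strand at chr2:74697513-74697762.
Hoxa11: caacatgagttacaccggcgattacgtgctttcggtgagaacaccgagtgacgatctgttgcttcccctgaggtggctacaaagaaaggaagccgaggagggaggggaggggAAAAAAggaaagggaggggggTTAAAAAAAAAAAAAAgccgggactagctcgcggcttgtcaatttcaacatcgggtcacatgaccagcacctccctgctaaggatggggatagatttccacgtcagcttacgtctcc
Hoxa7: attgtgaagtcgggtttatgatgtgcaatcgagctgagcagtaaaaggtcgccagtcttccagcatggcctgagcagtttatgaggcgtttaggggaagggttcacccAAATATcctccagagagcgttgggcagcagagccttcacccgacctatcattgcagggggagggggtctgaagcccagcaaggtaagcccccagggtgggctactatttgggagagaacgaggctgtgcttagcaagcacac
Hoxd8: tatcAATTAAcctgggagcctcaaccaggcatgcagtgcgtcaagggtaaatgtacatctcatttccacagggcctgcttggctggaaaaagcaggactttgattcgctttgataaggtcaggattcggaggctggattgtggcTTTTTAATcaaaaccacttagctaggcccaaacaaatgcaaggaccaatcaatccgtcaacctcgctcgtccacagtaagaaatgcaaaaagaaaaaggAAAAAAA
Hoxd9: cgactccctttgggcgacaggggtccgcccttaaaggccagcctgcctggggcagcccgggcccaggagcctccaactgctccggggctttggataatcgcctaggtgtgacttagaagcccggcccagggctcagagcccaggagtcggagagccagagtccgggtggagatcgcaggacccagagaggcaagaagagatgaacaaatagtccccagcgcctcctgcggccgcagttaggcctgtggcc

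The Hoxa11 window was 48.0% A or T and held 2 such runs, the longest of 16 bases, and the Hoxa7 window was 45.2% A or T with 1 run of 6 bases. Hoxd8, at 55.6% A or T, held 3 runs, the longest of 8 bases. Hoxd9, its neighbour, was 34.8% A or T and held 0 runs. Such a run was present in 66.9% of the 32851 promoter windows in the table and in 75.0% of the 24 windows of Hox cluster genes, which cover 19 of the members. The median share of A or T was nevertheless lower in the Hox windows, at 41.4% against 47.6% in all windows. The homeodomain core TAAT, searched on both strands and so also as ATTA, was present in 54.9% of all windows and in 75.0% of the Hox windows, and can lie inside an A or T run. It occurred 1 time before Hoxa11, 0 times before Hoxa7, 2 times before Hoxd8 and 1 time before Hoxd9. These matches are letters in a window and are not evidence of binding.

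The mean intensity of most Hox genes lay above background, in a share close to that of all genes. The background limit was 58.2, the highest intensity of the 9 Y-linked probe sets in the 5 female samples, and 30 of 33 members had a mean above it, beside 87.8% of all genes. By this limit all 9 Hoxa members, 8 of 9 Hoxb, all 7 Hoxc and 6 of 8 Hoxd were above background, and Hoxb1, Hoxd1 and Hoxd10 were below it. Hoxb13, at a mean of 58.4, lay at the limit. Against a stricter limit of 161, under which the dimmest 40% of all genes lie, 19 of 33 members remained above, with 6 Hoxa, 5 Hoxb, 6 Hoxc and 2 Hoxd. The 2 Hoxd members were Hoxd8 and Hoxd9. Hoxd11, Hoxd12 and Hoxd13, the distal limb genes at the tail end of that cluster, had means of 83.5, 77.4 and 89.8. In bulk samples, fewer cells of a type and less RNA per cell cannot be told apart.

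**Figure D1:**
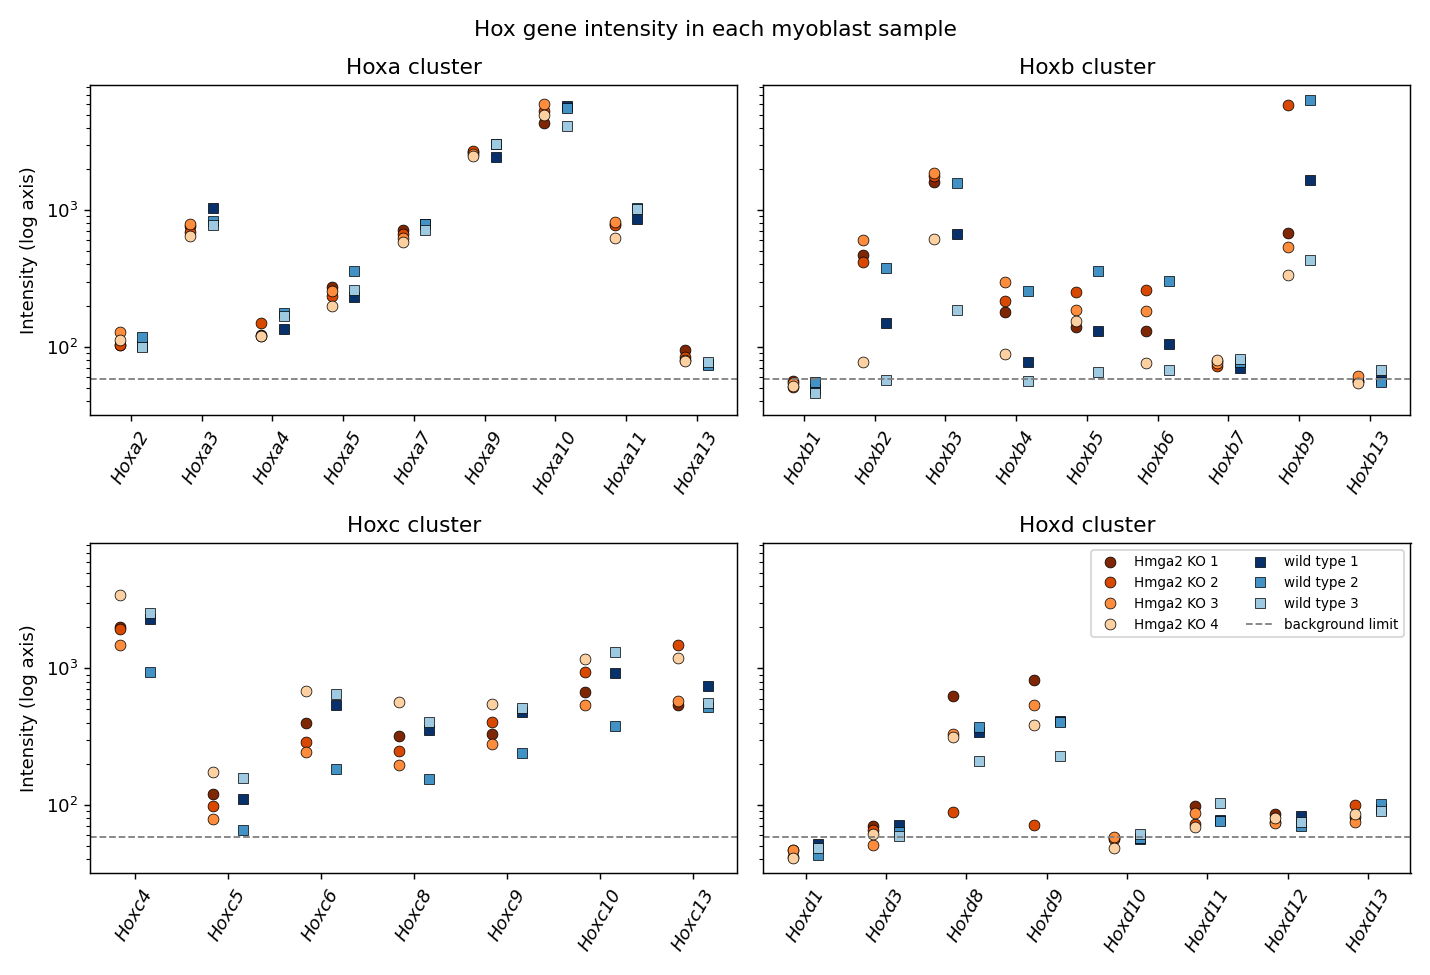
Intensity (log axis) of each of the 33 Hox genes in the 4 Hmga2 KO samples (circles) and the 3 wild type samples (squares), by cluster and paralog number, with the background limit of 58.2 as a dashed line. The 7 samples lie close together for the Hoxa genes and spread by up to 19.2-fold for Hoxb9.

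The main feature of the Hox genes in these 7 samples was a wide spread between samples of the same genotype, often with the same high or low samples in neighbouring genes. The spread was measured as the within-group SD, the residual SD of log2(intensity + 1) after the genotype means were taken out, and its median over all genes was 0.158. Of the 33 members, 15 (45.5%) had a within-group SD in the largest 5% of all genes, that is above 0.405, and 5 members were among the top 50 of all 18193 genes. These 15 were 0 of 9 Hoxa, 6 of 9 Hoxb, 7 of 7 Hoxc and 2 of 8 Hoxd genes. The Hoxb members outside the 15, Hoxb1, Hoxb7 and Hoxb13, had values of at most 81.9. The Hoxd members outside the 15 had at most 103. So near the background limit of 58.2 a spread between samples may not show. Neighbouring Hox genes are not independent of each other, so the counts are a description.

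**Figure D2:**
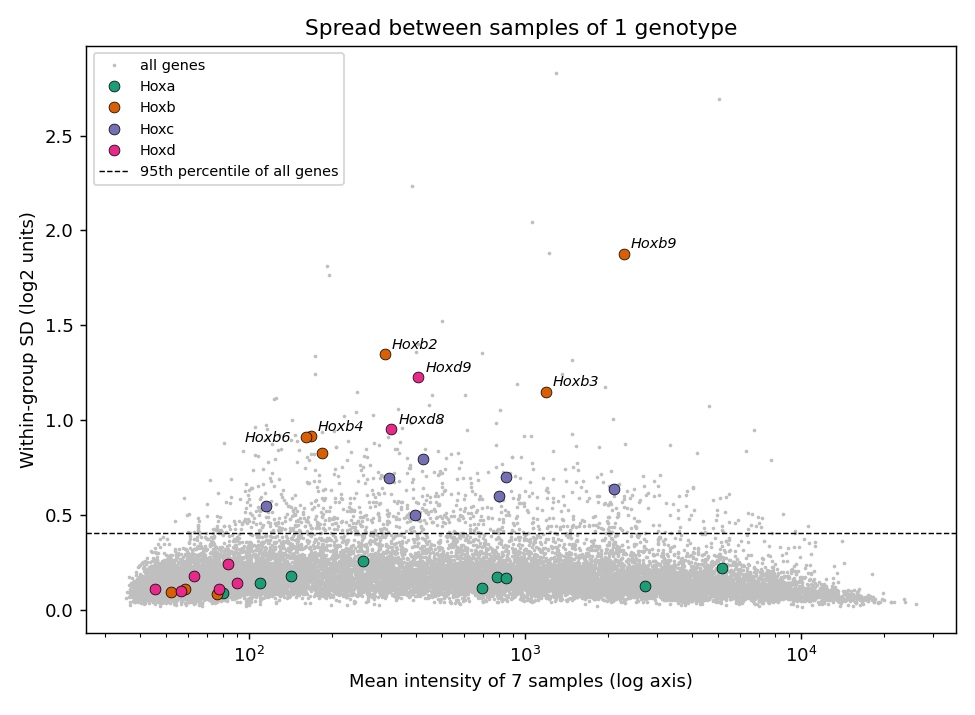
Within-group SD (log2 units) of every gene against its mean intensity in 7 samples (log axis), with Hox genes coloured by cluster and the 95th percentile of all genes, 0.405, as a dashed line. Hoxb9 has the highest SD of the Hox genes, at 1.88, and no Hoxa gene lies above the line.

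Genes of the Hoxa cluster varied little. Across the 7 samples the highest value was 1.26 to 1.78 times the lowest in each of the 9 Hoxa members, and within-group SDs were 0.09 to 0.26. The brightest probe set of this cluster was that of Hoxa10, which takes part in patterning the lumbar region and the upper limb segment. Its values were 4349, 5322, 5941 and 4982 in Hmga2 KO, against 5734, 5602 and 4136 in wild type. The groups overlapped widely, with wild type replicate 3 lowest and Hmga2 KO replicate 3 highest. Hoxa9, which acts in axial patterning and in blood progenitors, had means of 2596 ± 101 in Hmga2 KO (SD, n = 4) and 2847 ± 353 in wild type (SD, n = 3).

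In the Hoxb cluster, Hoxb2 to Hoxb6 varied widely, with the same lowest sample but not the same order of samples throughout. Hoxb3, a hindbrain and neck patterning gene, was at 1612, 1791 and 1858 in Hmga2 KO replicates 1 to 3 and at 611 in replicate 4, against 665, 1586 and 184 in wild type replicates 1 to 3. High values thus occurred in 3 Hmga2 KO samples and in wild type replicate 2, and the lowest in wild type replicate 3. Hoxb2, which specifies hindbrain segments, had 472, 420.0, 606 and 77.7 in Hmga2 KO, against 149.8, 379 and 57.4 in wild type. Hoxb4, used widely in work on blood stem cells, had 179.9, 214, 296 and 88.2 in Hmga2 KO, against 77.1, 254 and 56.2 in wild type. The order of samples was much like that of Hoxb3, with Hmga2 KO replicate 4 and wild type replicates 1 and 3 low in both genes.

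Hoxb5, which helps set the position of the forelimb, had 139, 253, 184 and 154 in Hmga2 KO, against 131, 358 and 65.3 in wild type. Hoxb6, a neighbour expressed in trunk and limb mesoderm, had 129, 261, 182 and 75.7 in Hmga2 KO, against 104, 302 and 67.0 in wild type. Both were highest in wild type replicate 2, followed by Hmga2 KO replicate 2. Hmga2 KO replicate 1 lay above the mean of 7 samples in Hoxb2, Hoxb3 and Hoxb4, by 1.05, 0.78 and 0.35 log2 units, but at -0.23 and -0.10 in Hoxb5 and Hoxb6. For all 5 genes from Hoxb2 to Hoxb6 wild type replicate 3 was the lowest of the 7 samples. The highest value of each was 4.50 to 10.6 times its lowest, and within-group SDs were 0.83 to 1.35.

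Farther along the cluster, Hoxb9, a gene of thoracic patterning and forelimb position, had the widest spread of all members. It reached 5860.1 in Hmga2 KO replicate 2 and 6404 in wild type replicate 2, with 677, 534 and 333 in Hmga2 KO replicates 1, 3 and 4 and with 1659 and 431 in wild type replicates 1 and 3. One sample of each genotype therefore stood far above the rest, a 19.2-fold range, and the within-group SD of 1.88 lay at the 99.97th percentile of all genes. The non-coding transcript Hoxb5os showed 560 in Hmga2 KO replicate 2 and 503 in wild type replicate 2, with 41.6, 34.8 and 34.2 in the other Hmga2 KO samples and 109 and 74.5 in the other wild type samples. A probe set shared by Hoxb8 and Hoxb7, and so not counted among the members, had 106, 430.3, 101 and 57.5 in Hmga2 KO, against 161, 403 and 54.7 in wild type. It was high in the same replicates 2, which also had the highest 3' to 5' ratios of the 7 samples, for Actb 1.74 in Hmga2 KO replicate 2 and 1.94 in wild type replicate 2, and for Gapdh 1.36 and 1.52. The part of these ratios in the Hoxb9 pattern was not tested. By contrast, the probe set of Hoxb7 alone stayed at 70.0 to 81.9 in all 7 samples. These values lay little above the background limit of 58.2, where a spread of Hoxb7 itself may not show.

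The genes from Hoxc4 to Hoxc10 varied together, with a different order of samples. Hoxc4, read on the brightest probe set of this cluster and a gene of the neck and anterior trunk, had 2004, 1955, 1487 and 3418 in Hmga2 KO, against 2308, 936 and 2561 in wild type. Hoxc6, which marks the start of the thorax and the forelimb level, had 398, 289, 244 and 681 in Hmga2 KO, against 537, 185 and 651 in wild type. Hoxc10, a gene of the lumbar and hindlimb level, had 671, 936, 539 and 1172 in Hmga2 KO, against 926, 381 and 1323 in wild type. Wild type replicate 2 was the lowest sample and Hmga2 KO replicate 4 or wild type replicate 3 the highest in these 3 genes.

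Hoxc5, Hoxc8 and Hoxc9, genes of the cervical and thoracic levels, had a similar but not identical order. In Hoxc9, as in Hoxc10, Hmga2 KO replicate 2 lay above replicate 1, at 403 against 333. Wild type replicate 2, the sample with the highest 3' to 5' ratios, was lowest in 6 of 6 genes from Hoxc4 to Hoxc10, and Hmga2 KO replicate 4 was highest in 5 of the 6, all but Hoxc10. In each of these genes the highest value was 2.30 to 3.69 times the lowest, and within-group SDs were 0.50 to 0.80. Averaged over the 6 genes, the deviation from the mean of 7 samples was -0.01, -0.08, -0.52 and 0.72 log2 units in Hmga2 KO replicates 1 to 4, and 0.26, -0.91 and 0.55 in wild type replicates 1 to 3. For Hoxb2 to Hoxb6 these averages were 0.37, 0.79, 0.81 and -0.75 in Hmga2 KO and -0.54, 0.92 and -1.59 in wild type. The samples that were low for Hoxb2 to Hoxb6, Hmga2 KO replicate 4 and wild type replicates 1 and 3, were those with the highest average for Hoxc4 to Hoxc10. This holds in 7 samples and is given without a test.

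Hoxd8 and Hoxd9, neighbours in the middle of the Hoxd cluster, had yet another pattern. Hoxd9, which takes part in limb and lumbar patterning, had 820, 71.5, 539 and 384 in Hmga2 KO, against 408, 405 and 229 in wild type. Hoxd8, active in the trunk, had 630.1, 89.4, 331 and 315 in Hmga2 KO, against 343, 373 and 209 in wild type. Both were lowest in Hmga2 KO replicate 2 and highest in Hmga2 KO replicate 1, and the wild type values lay between these. The other 6 Hoxd members stayed within a range of 1.22 to 1.5-fold across samples and had intensities of at most 103.

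**Figure D3:**
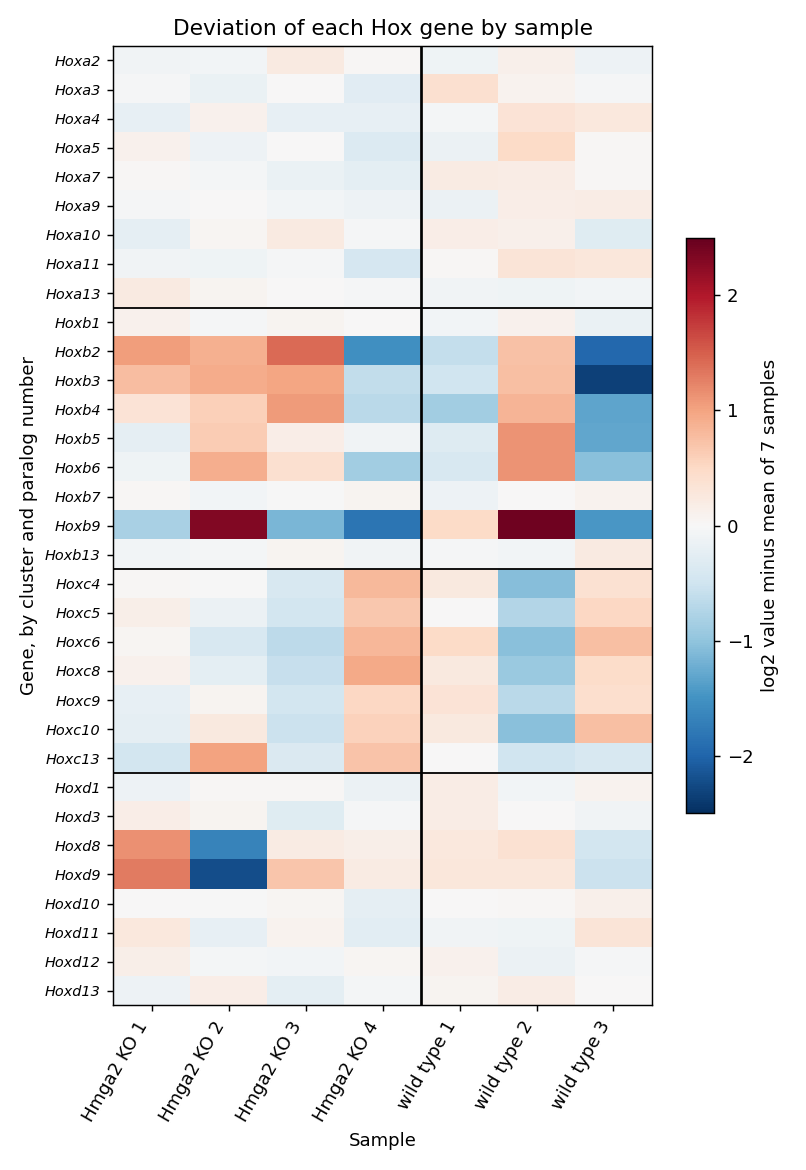
Deviation of log2(intensity + 1) of each Hox gene (rows, by cluster and paralog number) from its mean over 7 samples, in the 4 Hmga2 KO samples left of the black line and the 3 wild type samples right of it. Hoxc4 to Hoxc10 share their lowest sample, wild type replicate 2, Hoxb2 to Hoxb6 share wild type replicate 3, and Hoxd8 and Hoxd9 share Hmga2 KO replicate 2.

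Genes next to the clusters did not share the wide spread of the Hoxb2 to Hoxb6, Hoxb9, Hoxc, Hoxd8 and Hoxd9 values, and varied about as the Hoxa genes did. The nearest 3 measured genes on each side of each cluster gave 24 flanking genes, of which 23 were above background. None of the 24 was in the largest 5% of within-group SDs, and none passed the genotype test in limma, while 4 of the 24 had an unadjusted p under 0.05, beside 13.3% of all genes. The highest value of each flanking gene was 1.15 to 1.79 times its lowest, and the median percentile of their SDs was 47.9. Beside Hoxb lay Skap1 and Ttll6 and beside Hoxc lay Smug1 and Calcoco1, with SDs at the 56.1st, 13.7th, 13.6th and 20.5th percentiles. Evx1 and Evx2, homeobox genes next to Hoxa13 and Hoxd13, lay at the 56.5th and 86.8th percentiles. The highest of the 24 was Lnpk near Hoxd, at the 88.7th percentile, and Hibadh near Hoxa lay at the 85.0th, both above every Hoxa member.

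Second probe sets shared the lowest sample in Hoxb3, Hoxd8 and Hoxc6, with a similar but not always identical order of the other samples. Those of Hoxb4 and Hoxc5 matched in part. The other probe set of Hoxb3 had 668, 536, 873 and 221 in Hmga2 KO, against 242, 549.6 and 78.2 in wild type, again with wild type replicate 3 lowest. The other probe set of Hoxd8 had 388, 77.3, 245 and 174 in Hmga2 KO, against 271, 249 and 148 in wild type, again lowest in Hmga2 KO replicate 2. All 3 probe sets of Hoxc6 were lowest in wild type replicate 2. The dimmer probe set of Hoxb4 had 94.8, 90.9, 114 and 50.8 in Hmga2 KO, against 55.2, 82.6 and 55.4 in wild type, a range of 2.24-fold against 5.27-fold on the brighter one. It was lowest in Hmga2 KO replicate 4, not in wild type replicate 3, while the same 3 samples were low. Of the dimmer probe sets of Hoxc5, 1 was lowest in wild type replicate 2 and 1 in Hmga2 KO replicate 3, at 45.0 against 46.1 in wild type replicate 2. Of the members, 10 had several probe sets above background, and in 3 of them, Hoxa10, Hoxc5 and Hoxc6, the genotype difference had a different sign between probe sets, at sizes of at most 0.24 log2 units. For Hoxa10 it was 0.0038 on the brightest probe set and -0.12 on the other. Hoxc5 had 0.11, 0.09 and -0.06, and Hoxc6 had -0.11, -0.24 and 0.03. Hoxa3, Hoxa5 and Hoxd8 were read on probe sets whose names end in _s_at or _x_at, which Affymetrix gives to probe sets that can match more than a single transcript, so these values are less certain.

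Loss of Hmga2 was not accompanied by a detected change of any Hox gene. None of the 33 members passed the genotype test (limma, Benjamini-Hochberg adjustment over 18193 genes), and the smallest adjusted p was 0.301. At an unadjusted p under 0.05 there were 3 members (9.09%), beside 13.3% of all genes, and all 3 had a lower mean in Hmga2 KO. Of all genes, 10.3% were lower and 2.99% higher in Hmga2 KO at that p. The groups did not overlap in 2 members (6.06%), beside 11.7% of all genes. Hmga2 KO had the higher mean in 16 members and the lower mean in 17, whereas 67.6% of all genes had the lower mean in Hmga2 KO. The median log2 difference of the members was -0.01, and that of all genes was -0.07.

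The 3 members at an unadjusted p under 0.05 were all Hoxa genes. Hoxa11, which with Hoxd11 shapes the forearm and lower leg, had 793, 776, 822 and 622 in Hmga2 KO, against 859, 1042 and 1025 in wild type. Every Hmga2 KO value was below every wild type value, with a log2 difference of -0.38 ± 0.13 (SE) and a 95% interval of -0.66 to -0.09 (unadjusted p = 0.0153, adjusted p = 0.301, limma). Hoxa4, a gene of the neck and anterior trunk, had 121, 150.0, 121 and 121 in Hmga2 KO, against 135, 177 and 167 in wild type. Here the groups overlapped through Hmga2 KO replicate 2, and the difference was -0.31 (adjusted p = 0.351, limma). The other probe set of Hoxa4 was nearly as bright, at a mean of 136 against 142, and gave -0.18 (unadjusted p = 0.206, limma over all probe sets). On the mean of its probe sets Hoxa4 was not under an unadjusted p of 0.05. Hoxa7, a thoracic patterning gene, had 713, 669, 623 and 584 in Hmga2 KO, against 797, 793 and 709 in wild type, a difference of -0.25 (adjusted p = 0.354, limma). Only Hmga2 KO replicate 1 reached into the wild type range of Hoxa7. Hoxa5, read on an _x_at probe set, had a difference of -0.20 (unadjusted p = 0.252, limma). Its other probe set gave -0.21 (unadjusted p = 0.0440, limma over all probe sets). There the groups did not overlap, at 206 to 229 in Hmga2 KO and 243 to 267 in wild type.

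Over the whole Hoxa cluster 6 of 9 members had a lower mean in Hmga2 KO and the median difference was -0.20 log2 units. Hoxa13, the digit gene at the tail end of this cluster, had 94.0, 83.7, 80.0 and 78.2 in Hmga2 KO, against 74.7, 74.0 and 76.7 in wild type. These groups did not overlap, but the difference of 0.16 did not pass the test (adjusted p = 0.492, limma) and the values lay little above background. Hoxa11os, the antisense transcript of Hoxa11, had 1649, 962, 1163 and 1025 in Hmga2 KO, against 1272, 1273 and 895 in wild type, with a difference of 0.05 and overlapping groups. Without wild type replicate 2, the sample with the highest 3' to 5' ratios, none of these 3 Hoxa genes had an unadjusted p under 0.05, and Hoxb3, Hoxb4 and Hoxb5 did, each with a higher mean in Hmga2 KO, beside 11.4% of all genes. Without wild type replicate 3 the members under that p were Hoxa3 and Hoxa7, beside 7.7% of all genes. The count over the samples left out ranged from 1, without Hmga2 KO replicate 3, to 3, while the share of all genes ranged from 7.7% to 17.4%.

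The largest genotype differences belonged to the genes that varied most between samples, and their intervals were wide. Hoxb3 averaged 1468 ± 580 in Hmga2 KO (SD, n = 4) and 812 ± 712 in wild type (SD, n = 3), a log2 difference of 1.21 with a 95% interval of -0.28 to 2.71 (adjusted p = 0.446, limma). For Hoxb2 the difference was 1.06, with an interval of -0.68 to 2.81. Hoxb9 gave -0.86, with an interval of -3.29 to 1.57. The interval of Hoxb9 thus spans severalfold differences in both directions, and those of Hoxb2 and Hoxb3 reach a severalfold higher level in Hmga2 KO. The median differences were 0.19 log2 units over the Hoxb members, 0.11 over Hoxc and -0.08 over Hoxd.

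**Figure D4:**
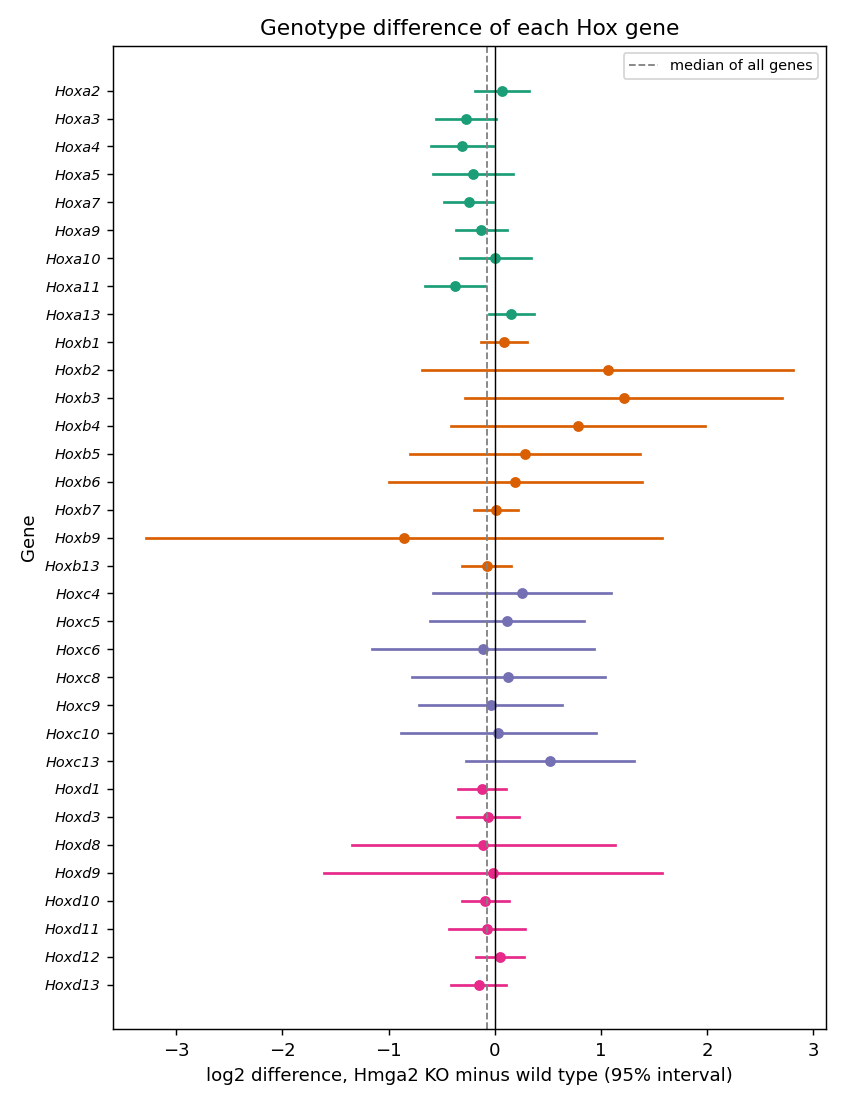
Log2 difference, Hmga2 KO minus wild type, of each of the 33 Hox genes with its 95% interval, coloured by cluster, with the median of all genes, -0.07, as a dashed line. The widest intervals belong to Hoxb9, Hoxb2 and Hoxd9, and no gene passed the test after adjustment.

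The sexes were then compared within Hmga2 KO, because no wild type sample was male. None of the 33 members passed that test (limma, 3-group fit of 7 samples, adjusted over all genes), in which 7 genes passed, 0.0385% of those tested. At an unadjusted p under 0.05 there were 4 members (12.1%), beside 6.29% of all genes. They were Hoxc13, Hoxd8, Hoxd9 and Hoxd11. All 7 Hoxc members had the lower mean in male Hmga2 KO, with 2 samples of each sex. Of 8 Hoxd members 6 had the higher mean there. The median male minus female difference of all genes was -0.04 log2 units. In Hoxc4, Hoxc5, Hoxc6 and Hoxc8 the male replicate 1 lay above the female replicate 2, with 398 against 289 in Hoxc6. In Hoxc9, Hoxc10 and Hoxc13 it lay below.

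Hoxc13, a regulator of hair and nail keratins at the tail end of its cluster, did not share the sample order of Hoxc4 to Hoxc10. It had 537 and 572 in male Hmga2 KO, against 1476 and 1200.1 in female Hmga2 KO, and 739, 518 and 557 in wild type females. Both female Hmga2 KO samples lay above all the other samples, and the males lay within the wild type range. The male minus female difference was -1.26 ± 0.19 log2 units (SE), with a 95% interval of -1.70 to -0.83 (unadjusted p = 0.000136, adjusted p = 0.168, limma). Among females alone, Hmga2 KO was above wild type by 1.15 log2 units without overlap (unadjusted p = 0.000289, adjusted p = 0.210, limma), whereas over all 7 samples the genotype difference was 0.52. Neither comparison passed after adjustment. Among females alone, 3 members, Hoxc13, Hoxa3 and Hoxa11, had an unadjusted p under 0.05 for genotype, beside 6.83% of all genes. With sex in the model there were 4, these 3 and Hoxa7, beside 7.39% of all genes.

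For Hoxd9 the male minus female difference was 1.99 ± 0.66 log2 units (SE, adjusted p = 0.626, limma) and for Hoxd8 it was 1.44 ± 0.56 (SE, adjusted p = 0.717, limma). Both rested in large part on Hmga2 KO replicate 2, the female with 71.5 and 89.4, since without it the differences were 0.79 and 0.54. Hoxd11 had 98.7 and 87.4 in male Hmga2 KO, against 71.9 and 68.8 in female Hmga2 KO and 77.8, 76.4 and 103 in wild type, a male minus female difference of 0.40 (adjusted p = 0.791, limma). Both male values lay above both female Hmga2 KO values. The highest Hoxd11 value was in wild type replicate 3, and Hmga2 KO and wild type overlapped. Genotype and sex could not be separated for males, since the series has no male wild type sample.

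**Figure D5:**
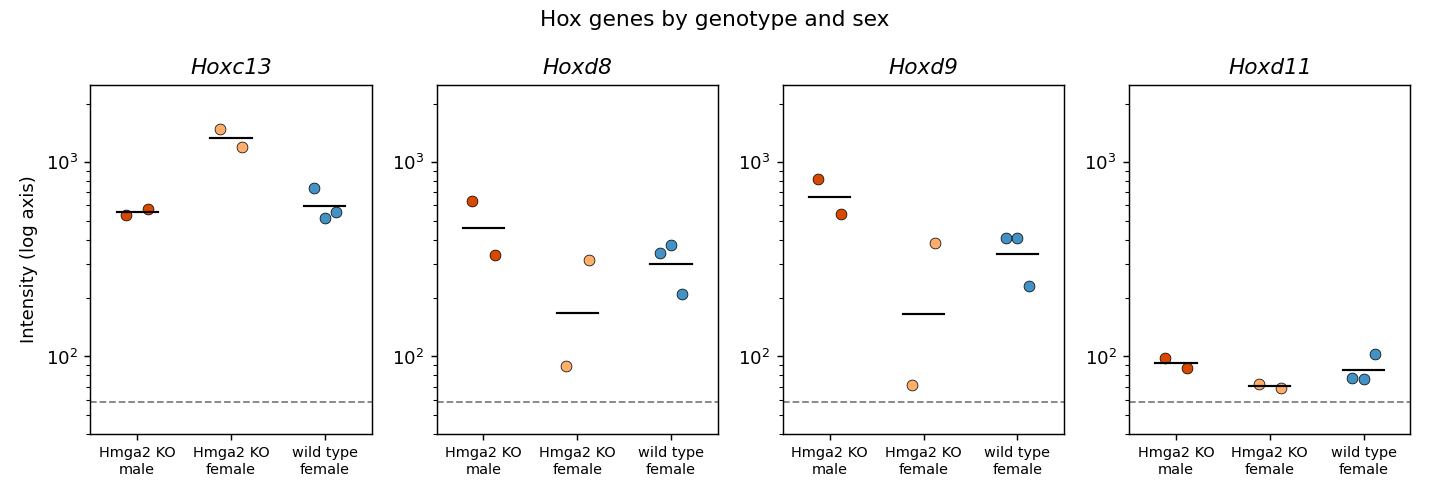
Intensity (log axis) of the 4 Hox genes with an unadjusted p under 0.05 between the sexes, in male Hmga2 KO (n = 2), female Hmga2 KO (n = 2) and female wild type (n = 3), with group means of the log2 values as bars and the background limit of 58.2 dashed. Only Hoxc13 shows both female Hmga2 KO samples, 1476 and 1200.1, above all the others.

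The genes that act with or upstream of Hox proteins were read in the same fit. None of the lists below had a member past the test (limma, adjusted over all genes), and each count is of members at an unadjusted p under 0.05, to be read beside 13.3% of all genes. Of 8 measured TALE cofactors, the homeodomain partners that bind DNA with Hox proteins, 1 had a higher mean in Hmga2 KO at that p and 0 a lower one, with a median difference of 0.04. Meis1 was that member, with 185, 139, 152 and 159 in Hmga2 KO, against 128, 138 and 100.4 in wild type (log2 difference 0.38, adjusted p = 0.319, limma). Its groups did not overlap, though Hmga2 KO replicate 2 and wild type replicate 2 were nearly equal. None of the 8 was in the largest 5% of within-group SDs.

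Retinoic acid, made by Aldh1a enzymes and removed by Cyp26 enzymes, activates the head-end Hox genes in embryos. Of 19 measured genes of its synthesis, breakdown and reception and of the Cdx factors, 2 were higher and 2 lower at an unadjusted p under 0.05, with a median of 0.02. Aldh1a2, which makes retinoic acid, had 297, 215, 157 and 103 in Hmga2 KO, against 94.0, 64.5 and 95.9 in wild type, without overlap (log2 difference 1.10, adjusted p = 0.292, limma). Dhrs3, which reduces retinal, had a difference of 0.84. The receptor genes Rxrg and Rara had differences of -0.48 and -0.29. In this list 4 genes were in the largest 5% of within-group SDs.

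Among 20 measured Trithorax and Polycomb genes, 1 was higher and 3 were lower at that p, with a median of -0.10. The lower ones were Cbx2 (-0.27), Phc1 (-0.41) and Ring1 (-0.36), subunits of Polycomb complex PRC1, and the higher one was Jarid2 (0.30), a partner of PRC2, with adjusted p from 0.332 to 0.375 in limma. None of the 20 was in the largest 5% of within-group SDs, beside 15 of 33 Hox genes. Of 40 measured limb and axial patterning genes, 4 were higher and 4 lower, with a median of -0.06. Tbx3, a limb bud regulator, had 968, 1165, 1347 and 1297 in Hmga2 KO, against 764, 607 and 685 in wild type (log2 difference 0.79, adjusted p = 0.190, limma). Emx2, a factor of the urogenital tract, forebrain and shoulder blade, had 1171, 922, 1210 and 1282 in Hmga2 KO, against 659.7, 770.3 and 528 in wild type (log2 difference 0.82, adjusted p = 0.194, limma). The groups did not overlap in Tbx3 or Emx2. Lhx2, below background, and Tbx15, the next by p, had differences of -0.31 and -0.56.

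Markers of other cell types were set beside the Hox genes. Fibroblast and fibro-adipogenic markers, of which 14 of 15 were measured and 4 were higher in Hmga2 KO at an unadjusted p under 0.05, summed to 18653 to 22316 in Hmga2 KO and 16403 to 17410 in wild type, with Lum and Dpt below background and the other 12 above it. Their mean deviation was highest in Hmga2 KO replicate 1, at 0.48 log2 units, the sample with the highest Hoxd8 and Hoxd9. Col1a1, a collagen gene of that list, had 2189, 69.0, 1061 and 1052 in Hmga2 KO, against 2891, 734 and 552 in wild type, and Col1a2 had 1921, 101, 362 and 199.6 in Hmga2 KO, against 538, 157 and 207 in wild type. Both were lowest in Hmga2 KO replicate 2, the sample lowest for Hoxd8 and Hoxd9. Col1a2 was highest in Hmga2 KO replicate 1, as was Pdgfra at 620.0. Other members of that list went the other way. Mgp, Smoc2, Islr and Dcn, the 4 higher ones, and Thy1 were highest in Hmga2 KO replicate 2. Their values there were 5168, 510, 2386, 82.5 and 147. Smooth muscle and pericyte markers, all 8 measured, summed to 23315 to 32118 in Hmga2 KO and 22020 to 31408 in wild type, with Cnn1 below background and with 1 member higher and 1 lower at an unadjusted p under 0.05. Rgs5, a pericyte marker of that list, had 9508, 10110, 11001 and 5946 in Hmga2 KO, against 3078, 6701 and 949 in wild type. Its 4 highest samples were those of Hoxb3 and its lowest was also wild type replicate 3, but Hmga2 KO replicate 4 was near wild type replicate 2. Acta2, Myh11 and Cspg4 of that list had other sample orders. Myh11 and Cspg4 were highest in Hmga2 KO replicate 4, at 124 and 325. Acta2 was lowest there, at 11058, with 14427 in wild type replicate 3. Abcc9, the lower one of that list, had 236, 752, 385 and 490.0 in Hmga2 KO, against 816, 899.7 and 874 in wild type, a log2 difference of -1.01 without overlap (adjusted p = 0.296, limma).

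Schwann and neural markers, with 6 of 8 measured and S100b below background, summed to 2464 to 6052 in Hmga2 KO and 4528 to 6632 in wild type, most of it from Erbb3, at a mean of 4067. Endothelial markers, all 8 measured with Tek below background, summed to 566 to 595 in Hmga2 KO and 629.6 to 648 in wild type. Leukocyte markers, all 9 measured with Adgre1 and Cd3e below background, summed to 866 to 904 in Hmga2 KO and 812 to 932 in wild type, and the 6 measured adipocyte markers, with Adipoq below background, to 2318 to 3045 in Hmga2 KO and 2198 to 2408 in wild type. A wide spread was not confined to Hox genes. In the largest 5% of within-group SDs were 3 of 10 myoblast, 4 of 14 fibroblast and 3 of 6 Schwann and neural markers. So were 2 of 8 smooth muscle and 1 of 6 adipocyte markers, but 0 endothelial and 0 leukocyte markers. Col1a1 had an SD of 1.88, at the 99.98th percentile. The part of these markers, and of the 3' to 5' ratios, in the Hox differences was not tested. Without wild type replicate 2 the count of Hox genes in the largest 5% of within-group SDs was 14, and over all other samples left out it was 15.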

How the data were processed

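Biotin-labelled cRNA of myoblasts was read on Affymetrix mouse arrays, per the labels. The authors deposited an intensity per probe set, on a linear scale with a median of 150 in each array. How probes were summarized and background corrected is not stated in the labels or headers. Of 45101 probe sets, 34945 had 1 gene in the platform annotation, 932 had several and 9160 had none, besides 64 controls. RefSeq GRCm38.p6 was used for names, gene order and promoter sequences.

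Values were transformed to log2(intensity + 1), and each gene was read on the probe set with the highest mean. The genotype test was limma 3.58.1 (lmFit, eBayes; R 4.3.3) without covariates, with Benjamini-Hochberg adjustment over 18193 genes and a threshold of 0.05. The sexes of Hmga2 KO were compared in a 3-group fit. Within-group SD is the residual SD of the 2-group fit. Values at every sample were given for the members at an unadjusted p under 0.05 in either comparison, those with discordant probe sets and the brightest of each cluster, and other members were chosen for their spread after their values were seen. Of other lists, up to 4 members with the smallest p were named. Col1a1, Col1a2, Pdgfra, Thy1, Rgs5, Acta2, Myh11, Cspg4 and Abcc9 were chosen after their values were seen. The members and lists were chosen with earlier results of these data known. Alternatives were a model with sex, the females only, the replicate block, each sample left out, quantile normalization, genes outside the dimmest 40%, the mean or most variable probe set, a pseudocount of 16, a trended and robust prior and array weights. The scripts were tested on simulated data. Arrays give no counts, so the number of samples limits the precision.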

Additional observations from a re-analysis of the deposited data

Results flagged for a closer look

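Among the 33 Hox genes, the 4 Hmga2 KO samples held a value far from the other 3 in 2 genes, judged by its gap to the nearest sample as a share of the whole range. In Hoxa4 the share was 0.983, since Hmga2 KO replicate 2 had 150.0 and the other 3 had 121 each, while wild type had 135, 177 and 167. In Hoxb3 the share was 0.872, since Hmga2 KO replicate 4 had 611 and the other 3 had 1612 to 1858, while wild type had 665, 1586 and 184. Chance flags about 1 in 20 groups, and 4.89% of all genes stood as far apart in Hmga2 KO.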

How the results depend on the processing

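No Hox gene passed the adjusted threshold in either comparison under any of the alternatives run. The count of Hox genes in the largest 5% of within-group SDs was 15 in most settings, 14 with sex as a covariate and in females alone, and 13 of the 19 members left without the dimmest 40% of genes. These settings for the SD, and those for single genes between the sexes, were chosen after seeing the data. The count of all genes past the genotype test was 5, and 99 with the replicate block; leaving out 1 sample gave 2 (without wild type replicate 3) to 17 (without Hmga2 KO replicate 2). The deviations of same-numbered samples correlated at 0.314, 0.365 and -0.181. These were not set beside differently numbered samples, so whether the replicate numbers pair the samples was not settled. Replicate 4 exists in Hmga2 KO alone, so the block takes up that sample. Its differences equal those without Hmga2 KO replicate 4, such as -0.37 for Hoxb9. With the replicate block 5 Hox genes had an unadjusted p under 0.05 for genotype, beside 12.2% of all genes. Hoxb2, Hoxb3 and Hoxb4 were added as higher in Hmga2 KO and Hoxa7 was lost. Hoxb2 and Hoxb3 were also under that p without Hmga2 KO replicate 4. With the trended and robust prior there was 1 such Hox gene, beside 12.8%, and leaving out 1 sample gave 1 to 3, against 3 as reported. The stricter background limit left 19 Hox genes, against 30.

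Several genotype differences changed sign, most of them close to 0, and none of them was called in any setting. Hoxc6 was 0.15 with sex as a covariate and in females alone. With the replicate block Hoxc5 was -0.094 and Hoxd11 0.0049. Hoxd9 was 0.073 after quantile normalization, 0.018 with a pseudocount of 16 and 0.10 with array weights. Hoxa10 was -0.059 on the mean of its probe sets and -0.12 on the most variable one. With 1 sample left out the log2 difference ranged as -0.15 to 0.088 for Hoxa10, -1.83 to 0.12 for Hoxb9, -0.20 to 0.52 for Hoxc4, -0.22 to 0.41 for Hoxc5, -0.67 to 0.24 for Hoxc6, -0.17 to 0.067 for Hoxd11, -0.50 to 0.43 for Hoxd8 and -0.45 to 0.72 for Hoxd9. Hoxb9 changed sign without wild type replicate 2 alone. The cause of these changes was not tested. Signal over background limits the dim members, whose differences are understated near the lowest intensities of 33.2 to 36.7.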
